A study of Drosophila melanogaster with 2 samples.

Results

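Binding of the homeodomain transcription factor Drgx was described at the nuclear transfer RNA (tRNA) genes of Drosophila melanogaster. The set was every gene with the biotype tRNA in Ensembl release 115 on chromosomes X, 2L, 2R, 3L, 3R and 4, which gave 290 genes of 18164 annotated on these chromosomes. A gene was counted as having a summit, the position of highest signal within a peak, when a summit of a deposited peak list lay within 500 bp of its start. Both libraries came from whole embryos, 1 day of age, of a transgenic Drgx-GFP strain that makes Drgx joined to enhanced green fluorescent protein (eGFP). Per the labels, sonicated chromatin of 200 to 800 bp was precipitated with an antibody against GFP, although another label field names Drgx as the antibody. The 2 libraries are biological replicates of 1 group, and the possible control experiment that the labels name was not used here. Whole embryos mix all cell types, so a peak cannot be assigned to a tissue, and the labels do not give the promoter that drives the fusion protein. With 1 group and no read counts there is no test, and all comparisons below are descriptions.

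A tRNA is the adaptor that brings an amino acid to the ribosome, and each tRNA gene is named for its amino acid and anticodon. RNA polymerase III (Pol III) transcribes these genes from a promoter that lies inside the gene. The factor TFIIIC binds its A box and B box, TFIIIB is then placed just before the start, and a run of T ends the transcript. Flies carry many identical copies of most tRNA genes, in clusters and as single genes between and within protein-coding genes. Homeodomain proteins bind short AT-rich words such as TAATTA.

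The DNA under 5 of the 7 strongest summits is given first. None of these windows reaches into the tRNA gene that names it. The windows of tRNA:Trp-CCA-2-2 and tRNA:Ile-AAT-1-3, which are not shown, do not reach their genes either. Each runs from 50 bp before to 50 bp after the summit, on dm6 and on the strand of the named tRNA gene, read 5′ to 3′ from the Release 6 assembly of NCBI RefSeq. Capitals mark TAATTA or the B box word GTTCGANNC on either strand.
tRNA:Tyr-GTA-1-8 summit window (chr3R:8669329-8669429, minus strand): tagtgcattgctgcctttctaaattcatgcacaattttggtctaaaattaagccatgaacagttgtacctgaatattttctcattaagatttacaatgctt
tRNA:Val-CAC-2-5 summit window (chr3R:19671824-19671924, minus strand): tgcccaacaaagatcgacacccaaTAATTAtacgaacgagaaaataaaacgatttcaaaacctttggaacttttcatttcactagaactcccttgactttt
tRNA:Lys-TTT-1-1 summit window (chr2L:8291013-8291113, plus strand): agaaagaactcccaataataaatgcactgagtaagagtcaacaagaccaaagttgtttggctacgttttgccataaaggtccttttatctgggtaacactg
tRNA:Gln-TTG-2-1 summit window (chrX:3427678-3427778, minus strand): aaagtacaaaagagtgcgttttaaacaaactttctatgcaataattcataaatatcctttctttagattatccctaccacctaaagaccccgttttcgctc
tRNA:Pro-TGG-1-2 summit window (chr3R:17619852-17619952, plus strand): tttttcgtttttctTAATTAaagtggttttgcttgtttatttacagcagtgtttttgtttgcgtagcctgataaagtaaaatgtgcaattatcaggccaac
Capitals occurred in 2 of these 5 windows, and in both they were TAATTA. None of the 5 windows held the B box word. The windows of tRNA:Trp-CCA-2-2 and tRNA:Ile-AAT-1-3, among the 7 strongest but not shown, held neither word.

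The genes themselves are shown with 30 bases on each side, with the A box and the B box, in its relaxed form GNTCNANNC, in capitals. tRNA:Tyr-GTA-1-8 is the gene next to the strongest summit, and tRNA:Pro-TGG-1-1 has a summit inside it. The Asp-GTC-1 and Ala-AGC-2 pairs are copies with the same gene sequence, the first of each pair with a summit within 500 bp and the second without.
tRNA:Tyr-GTA-1-8 gene (chr3R:8669051-8669204, minus strand): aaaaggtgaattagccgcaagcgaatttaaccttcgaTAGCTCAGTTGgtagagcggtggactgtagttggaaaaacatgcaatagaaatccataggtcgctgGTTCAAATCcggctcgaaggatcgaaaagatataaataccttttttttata
tRNA:Pro-TGG-1-1 gene (chr3R:17618080-17618211, minus strand): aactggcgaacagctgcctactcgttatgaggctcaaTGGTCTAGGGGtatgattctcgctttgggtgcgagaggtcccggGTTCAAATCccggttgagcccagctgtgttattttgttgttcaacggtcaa
tRNA:Asp-GTC-1-5 gene (chr2L:8541731-8541862, plus strand): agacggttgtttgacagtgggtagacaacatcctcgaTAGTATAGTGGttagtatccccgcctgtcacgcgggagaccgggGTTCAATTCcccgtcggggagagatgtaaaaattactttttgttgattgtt
tRNA:Asp-GTC-1-6 gene (chr2L:8619998-8620129, plus strand): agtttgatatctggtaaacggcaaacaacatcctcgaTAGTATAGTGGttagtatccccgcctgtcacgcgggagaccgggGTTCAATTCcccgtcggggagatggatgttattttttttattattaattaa
tRNA:Ala-AGC-2-2 gene (chr3R:17619708-17619840, plus strand): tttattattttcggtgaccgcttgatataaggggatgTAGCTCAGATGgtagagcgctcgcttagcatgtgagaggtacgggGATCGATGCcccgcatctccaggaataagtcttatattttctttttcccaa
tRNA:Ala-AGC-2-8 gene (chr3R:17646653-17646785, minus strand): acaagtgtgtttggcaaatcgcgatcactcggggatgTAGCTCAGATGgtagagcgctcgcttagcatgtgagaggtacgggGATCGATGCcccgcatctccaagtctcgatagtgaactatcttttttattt
Within each pair all differences lay in the flanks. The nearest pooled summit was 268 bp from the start of tRNA:Asp-GTC-1-5 and 34803 bp from that of tRNA:Asp-GTC-1-6, and 164 bp from tRNA:Ala-AGC-2-2 and 26853 bp from tRNA:Ala-AGC-2-8.

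The annotated set carried the features of tRNA genes. Gene lengths ran from 71 to 186 bp with a median of 73 bp. An A box consensus was found in 271 of the 290 genes, the relaxed B box in 289, the strict word GTTCGANNC in 160, and a run of 4 T within 30 bases after the gene in 277. The 290 genes had only 95 distinct sequences, and 238 of them shared their sequence with at least 1 other member. Sequences were compared over the whole annotated gene. The Tyr-GTA-1 genes, which run from 93 to 186 bp, therefore each counted as a single copy although their names mark them as 1 family.

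The authors deposited 8 peak lists, 4 of them thresholded on the irreproducible discovery rate (IDR), which measures how well peak ranks agree between 2 lists, and 4 ranked lists of all scored peaks. The pooled thresholded list, from both replicates, held 8443 peaks and carries the main counts. The conservative thresholded list held 7909 peaks, that of replicate 1 held 6349 and that of replicate 2 held 5475. The ranked lists held 77876 to 96649 peaks on the 6 chromosomes. Each peak has a signal set by the authors, on a scale that the sources used here do not give, and values of different lists stand side by side without being compared as a change.

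Summits of the thresholded lists lay at a minority of tRNA genes, and at a smaller share of them than of all genes. In the pooled list 35 of the 290 tRNA genes (12.1%) had a summit within 500 bp, against 2875 of all 18164 genes (15.8%) and 17.8% of protein-coding genes. In the conservative list it was 29 tRNA genes (10%), against 15.2% of all genes. In replicate 1 it was 21 tRNA genes (7.24%), against 12.3% of all genes, and in replicate 2 it was 22 tRNA genes (7.59%), against 10.9%. The tRNA share was thus below that of all genes in each of the 4 lists, by a ratio of 0.587 to 0.763.

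Other short or non-coding gene classes were counted in the same way. The pooled list had a summit at 12.1% of tRNA genes, against 9.72% of ncRNA genes, 8.18% of snoRNA genes, 12.5% of the 32 snRNA genes and 2.99% of pseudogenes.

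**Figure D1:**
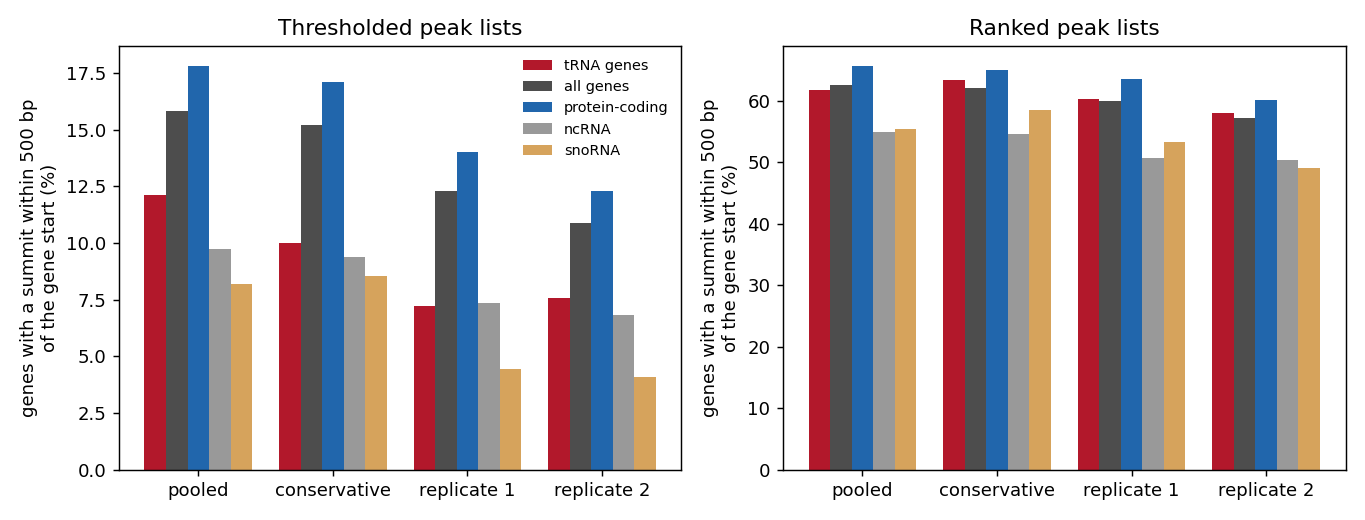
Percent of genes with a summit within 500 bp of the gene start (vertical axis) in the 4 thresholded lists (left) and the 4 ranked lists (right); bars are gene classes, and all genes include the tRNA genes. In the thresholded lists tRNA genes sit at 7.24 to 12.1%, under all genes at 10.9 to 15.8%, while in the ranked lists both sit near 60%.

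The ranked lists, which also hold weak peaks, reached most tRNA genes and most genes of any kind. In the pooled ranked list 179 tRNA genes (61.7%) had a summit, against 62.5% of all genes, and in the conservative ranked list 184 (63.4%), against 62.1%. In the ranked list of replicate 1 it was 175 tRNA genes (60.3%), against 60% of all genes, and in that of replicate 2 it was 168 (57.9%), against 57.2%. These tRNA shares were at the background. Among all tRNA genes, 14.1% had a summit in the strongest 10% of the pooled ranked list, against 18.5% of all genes. Over the 8 lists, 70 tRNA genes had no summit in any, and 17 had one in all 4 thresholded lists. The same counts over all genes are not given here, so neither can be called particular to tRNA genes.

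The replicates named partly different tRNA genes at the threshold. A thresholded summit lay within 500 bp of 17 tRNA genes in both replicates, of 4 in replicate 1 alone and of 5 in replicate 2 alone. Of the 35 tRNA genes of the pooled list, 17 (48.6%) had a thresholded summit in both replicates, against 53.3% of all genes called in the pooled list, and 10 (28.6%) had one in neither, against 16.4%. One gene, tRNA:Ser-AGA-2-4, had a thresholded summit in replicate 1, with a signal of 63.2, but not in the pooled list. Another, tRNA:Thr-AGT-1-4, had one in the conservative list alone, with a signal of 69.3. Across 61 tRNA summits paired within 100 bp between the ranked lists of the replicates, signal ranked alike, with a Spearman rho of 0.767 and a Pearson r of 0.79 on the log2 scale. Summits farther apart were left out, although 134 tRNA genes had a ranked summit in both replicates. The same values over all genes are not given here. The points share the genome position and local base composition, so this is a description.

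Because neighbouring tRNA genes can share a peak, the 35 genes went back to 24 distinct summits, 0.284% of the pooled list. The 500 bp windows around tRNA gene starts cover 0.164% of the 6 chromosomes, and summits stood at 109 per Mb in them, against 63.1 per Mb over the 6 chromosomes as a whole. The density around the starts of all genes is not given here. By genes, a pooled summit lay at 12.1% of tRNA genes and at the larger share of 15.8% of all genes. Signal at the 24 summits ran from 32.8 to 735 with a median of 121, against 2.04 to 3414 with a median of 120 at the other 8419 summits. Of the 24, 12 (50%) were in the strongest 50% of the list, and 1 (4.17%) was in the strongest 10%. The middle of the range at tRNA genes was close to that of the other peaks.

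By overlap of the peaks themselves by at least 1 bp, 14 of the 24 were also thresholded in both replicates, 4 in 1 replicate and 6 in neither. All 24 overlapped a peak in the ranked lists of both replicates. An overlapping replicate peak can have its summit outside the 500 bp window. That was so at tRNA:Phe-GAA-1-6 and tRNA:Val-CAC-2-5, both counted among the 14. Within 500 bp, tRNA:Phe-GAA-1-6 had no thresholded replicate summit, and tRNA:Val-CAC-2-5 had one in replicate 2 but not in replicate 1.

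**Figure D2:**
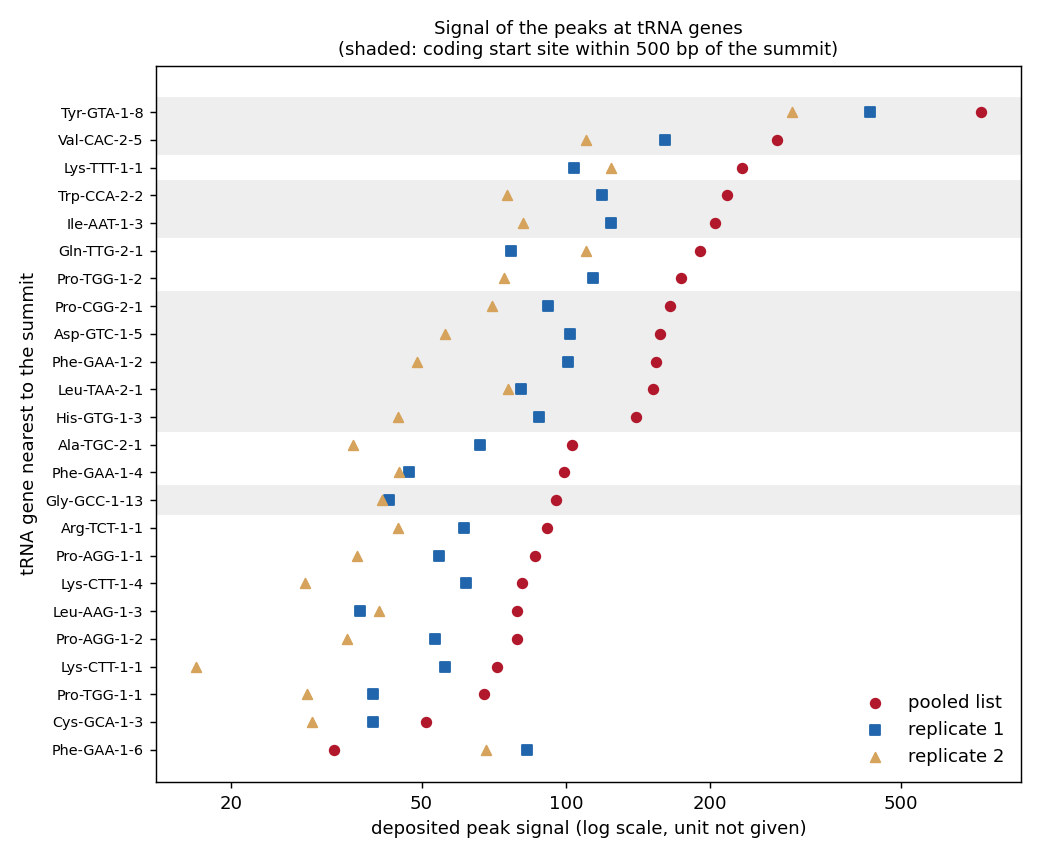
Signal of the 24 peaks at tRNA genes (horizontal axis, log scale, deposited units) in the pooled list and, for the overlapping peak, in the ranked list of each replicate; rows are named by the tRNA gene nearest to the summit, and shading marks a coding start site within 500 bp of the summit. tRNA:Tyr-GTA-1-8 stands highest in all 3 lists, and 9 of the 12 strongest peaks have a coding start site nearby. Signal differs in scale between the lists, and a replicate value is that of the strongest overlapping peak, whose summit can lie elsewhere.

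The strongest summit, 735 in the pooled list (rank 194 of 8443), lay 205 bp before the start of tRNA:Tyr-GTA-1-8 (FBgn0012024, chr3R:8669081-8669174, minus strand). The overlapping peak had a signal of 431 in replicate 1 and 296 in replicate 2, the highest of the 24 in each. This 94 bp tyrosine tRNA gene is the only copy of its whole annotated sequence. It lies in introns of p and CG8036, and is the last of a cluster of 3 tyrosine tRNA genes. The summit was also 239 bp from a start site of CG8036, so the peak could be placed at either gene by distance.

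Most of the other strong summits also lay near start sites of coding genes. The summit of tRNA:Val-CAC-2-5 (chr3R:19672277-19672349, in an intron of Naam, a nicotinamidase) had a pooled signal of 276, with 161 in replicate 1 and 110 in replicate 2, and lay 424 bp from a start site of Naam. That shared by tRNA:Trp-CCA-2-2 and tRNA:Gly-GCC-1-9 had a pooled signal of 217, with 119 in replicate 1 and 75.2 in replicate 2, and lay 139 bp from CG30122. That of tRNA:Ile-AAT-1-3 had 205, with 124 in replicate 1 and 81.4 in replicate 2, and lay 190 bp from ATP8A, which encodes a phospholipid-transporting ATPase. In each of these the signal of replicate 1 was above that of replicate 2, as was the median of the whole list, 87.2 in replicate 1 and 70.4 in replicate 2.

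Another 5 of the 12 strongest were within 500 bp of a coding start. tRNA:Pro-CGG-2-1 (165) lies in an intron of Bx, a LIM-only protein of wing development, and its summit was 135 bp from a start site of that gene. The summit shared by tRNA:Asp-GTC-1-5 and tRNA:Asp-GTC-1-4 (157) was 118 bp from the axon guidance gene Sema1a. That of tRNA:Phe-GAA-1-2 (154) was 32 bp from RpL17, a ribosomal protein gene. Those of tRNA:Leu-TAA-2-1 (152) and tRNA:His-GTG-1-3 (140) were 393 bp from CG13605 and 97 bp from CG8490. In the replicates these 5 had 80.6 to 102 in replicate 1 and 44.7 to 75.8 in replicate 2, and the peak of tRNA:His-GTG-1-3 missed the threshold in replicate 2.

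The other 3 of the 12 were farther from a coding start. tRNA:Lys-TTT-1-1 (FBgn0011902, chr2L:8290727-8290799), a single-copy lysine gene in an intron of the tyrosine kinase gene Btk, had a pooled signal of 233, with 104 in replicate 1 and 124 in replicate 2, and its summit was 6061 bp from the nearest coding start. tRNA:Gln-TTG-2-1 (FBgn0052493, chrX:3427452-3427523), a single-copy glutamine gene in an intron of CG12535, had 190, with 77 in replicate 1 and 110 in replicate 2, and its summit was 8079 bp from a coding start. These are the strongest summits at tRNA genes away from coding starts. Both ranked higher in replicate 2, at 1159 and 1380 of 5475 peaks, than in replicate 1, at 2485 and 3782 of 6349. This was not particular to them. The summit of tRNA:Leu-TAA-2-1, near a coding start, ranked 2443 in replicate 2 and 3561 in replicate 1. The summit of tRNA:Pro-TGG-1-2, 174 in the pooled list with 114 in replicate 1 and 74.3 in replicate 2, was 802 bp from CG14326.

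The weaker 12 summits, 32.8 to 103 in the pooled list, were mostly away from coding starts. Only that of tRNA:Gly-GCC-1-13, at 95.3 and 190 bp from the germ plasm gene tud, was within 500 bp of one. They included those beside tRNA:Lys-CTT-1-4 (81.1) and tRNA:Lys-CTT-1-1 (72), which lie in introns of the ecdysone receptor gene EcR, and one 4930 bp from a start site of noc beside tRNA:Pro-AGG-1-1 (86.2). The weakest, at tRNA:Phe-GAA-1-6 (32.8), was a peak overlapping a stronger one of 156 whose summit was 214 bp farther from the gene and outside the 500 bp window, and the replicate values plotted for it come from peaks that overlap both.

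Among the tRNA summits, those near a coding start were more often thresholded in both replicates. The same counts are not given for the other summits of the list. Signal differed between these tRNA summits as well, so distance and signal cannot be told apart here. Of the 10 tRNA summits within 500 bp of a coding start site, 8 were thresholded in both replicates, 2 in 1 and 0 in neither. Of the 14 farther away, 6 were thresholded in both, 2 in 1 and 6 in neither. The 8 in both include tRNA:Val-CAC-2-5, whose replicate 1 peak had its summit more than 500 bp from the start of the tRNA gene. The 6 in both include tRNA:Phe-GAA-1-6, whose replicate peaks also overlap the stronger neighbouring peak and have no thresholded summit within 500 bp of the gene. Signal had a median of 161 (95.3 to 735) at the 10 and of 83.7 (32.8 to 233) at the 14. Among the other summits of the list the medians were 122 with a coding start within 500 bp and 119 without. A coding start lay within 500 bp of 41.7% of tRNA summits, against 33.8% of the others.

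Counts over genes had the same order. A pooled summit lay at 9 of the 32 tRNA genes (28.1%) that start within 500 bp of a coding start site, at 11 of 91 (12.1%) that start farther away but within 2000 bp and at 15 of 167 (8.98%) beyond 2000 bp. Other non-coding genes had 17.6%, 9.21% and 7.46% in the same classes. In replicate 1 the tRNA shares were 25%, 8.79% and 2.99%, against 12.3%, 6.55% and 5.96% of other non-coding genes. In replicate 2 they were 25%, 9.89% and 2.99%, against 11.6%, 7.31% and 4.82%. The tRNA share thus fell with distance in all 3 lists, and beyond 2000 bp it was above that of other non-coding genes in the pooled list and below it in both replicate lists. In the pooled ranked list the tRNA shares were 59.4%, 62.6% and 61.7%, with no such fall.

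**Figure D3:**
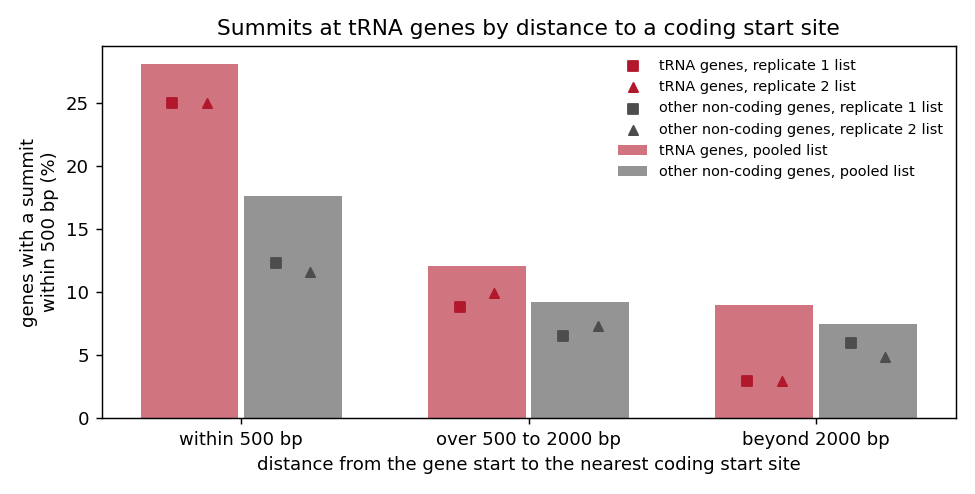
Percent of genes with a summit within 500 bp of their start (vertical axis) by the distance from the gene start to the nearest coding start site (horizontal axis), for tRNA genes and other non-coding genes; bars are the pooled thresholded list and points the replicate lists. The tRNA bars stand at 28.1%, 12.1% and 8.98%, and the replicate points at 25% and below.

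Set against genes that, like most tRNA genes, have no coding start site within 500 bp, the order turned. Of the 258 such tRNA genes 26 (10.1%) had a pooled summit, against 271 of all 3562 such genes (7.61%), a ratio of 1.32, where the comparison with all genes gave 0.763. All of these are non-coding genes. Against ncRNA, snoRNA and snRNA genes alone, the pooled list had 10.1% of tRNA genes and 8.08% of the others. In replicate 1 the same shares were 5.04% of tRNA genes and 6.17% of the others, and in replicate 2 they were 5.43% and 5.7%, so the order of the pooled list was not seen in either replicate. Distance to a coding start had a median of 899 bp for tRNA genes with a pooled summit and 3033 bp for those without. By position, 12 of 127 tRNA genes in introns (9.45%), 23 of 156 between genes (14.7%) and 0 of 7 in exons had a summit. Over all positions it was 12.1% of tRNA genes and 15.8% of all genes.

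Summits lay on both sides of the tRNA gene starts. Of the 24, 12 were before the start and 12 after it, at a median distance of 205 bp (47 to 475 bp), and 2 (8.33%) were inside a tRNA gene body, those at tRNA:Arg-TCT-1-1 and tRNA:Pro-TGG-1-1. Gene bodies make up 10% of the windows searched, so this share was near that of the territory. Summits per 100 tRNA genes stood at 1.03 in the 100 bp before the start and 2.07 in the 100 bp before that, against 2.97 and 4.4 per 100 genes for all genes. All genes were highest in the second of these bins. These are pairs of a gene and its summit, so a summit shared by neighbouring tRNA genes counts once for each, and a tRNA bin holds 1 to 6 pairs. In the pooled ranked list 27 of 184 distinct tRNA summits (14.7%) were in gene bodies.

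**Figure D4:**
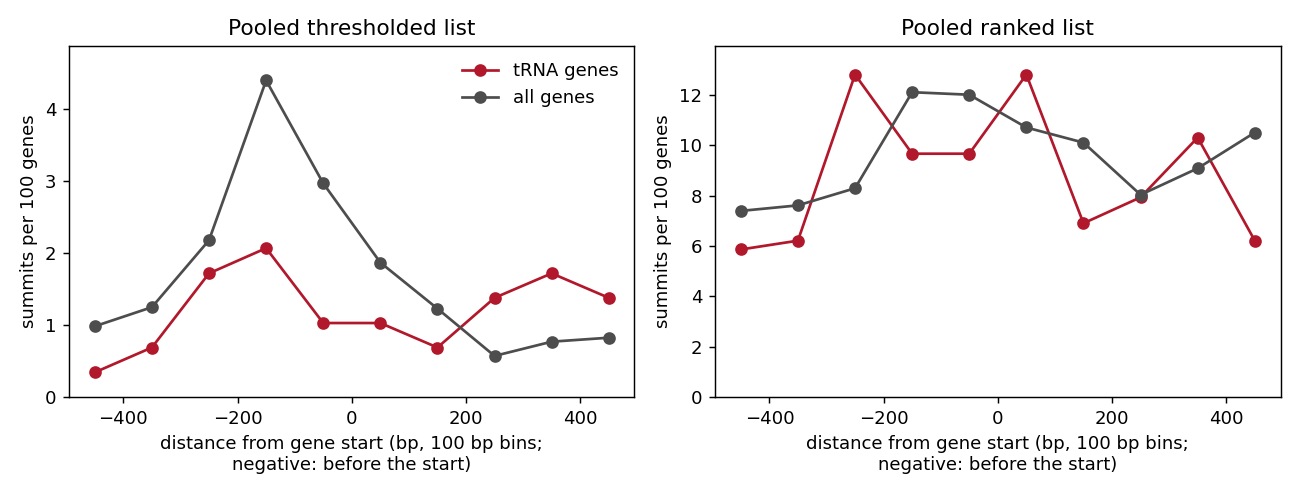
Summits per 100 genes (vertical axis) by distance from the gene start in 100 bp bins (horizontal axis, negative before the start, in the direction of transcription), for tRNA genes and all genes, in the pooled thresholded list (left) and the pooled ranked list (right). On the left all genes reach 4.4 in the bin from -200 to -100 bp and tRNA genes 2.07; each left tRNA point rests on 1 to 6 pairs of a gene and its summit.

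The bodies of tRNA genes hold few unique words, and their surroundings many. Inside the gene bodies, the median share of 36-base words that occur once on the 6 chromosomes was 0% for tRNA genes with and for those without a pooled summit. Within 500 bp of the start the medians were 91.6% for tRNA genes with a summit and 93.4% for those without, against 100% for all genes. The read length and the handling of reads with several matches are not stated in those sources, and their part in the number of summits in gene bodies was not tested. Among genes with at least 90% but not all words unique, 28 of 227 tRNA genes (12.3%) had a summit, against 9.55% of all such genes. With 50 to 90% unique it was 7 of 54 tRNA genes (13%), against 4.33%. Where all words were unique it was 0 of 4, against 17.1%, and under 50% it was 0 of 5, against 0.348%. The shares of all genes include the tRNA genes.

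Most summits at tRNA genes had no B box word close to them. The strict B box word GTTCGANNC stood within 50 bp of 3 of the 24 tRNA summits (12.5%), against 0.641% of the other summits, namely at tRNA:His-GTG-1-3, tRNA:Arg-TCT-1-1 and tRNA:Leu-AAG-1-3. The relaxed B box GNTCNANNC, which includes the strict word, stood at 8 (33.3%), against 7.84%, and the A box consensus at 2 (8.33%), against 11.8%. Within 100 bp the order of the A box turned, with 7 (29.2%) against 24.1%. The match lay within a tRNA gene at 2 of the 3 summits with the strict word, the exception being tRNA:His-GTG-1-3, and at 4 of the 8 with the relaxed one. The summits were chosen for lying near tRNA genes, most of which carry these words. A higher B box share than at the other summits was therefore built into the choice. TAATTA, which reads the same on both strands, stood at 4 (16.7%), against 7.95% of the other summits, and within 100 bp of 9 (37.5%), against 13.4%. GAGAGAG, a word of GAGA factor, GGTCACAC, a core promoter word, and TATCGATA, a word of DREF, stood within 50 bp of 0 of the 24 summits, against 2.93%, 0.499% and 0.404% of the others. Within 100 bp they stood at 0, 0 and 1 (4.17%), against 6.71%, 1.18% and 1.1%. The tRNA windows had a median of 37.1% G and C, against 34.7% at the other summits.

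By amino acid, summits were spread over 16 of the 22 groups. The share to set beside each group is 12.1% of all tRNA genes and 15.8% of all genes. Phenylalanine had the highest share, 4 of 8 genes, followed by proline with 5 of 17, cysteine with 2 of 7, tryptophan with 2 of 8 and lysine with 4 of 19. The phenylalanine genes went back to 3 distinct summits, the proline genes to 5 and the lysine genes to 4, while both cysteine genes shared 1. The phenylalanine genes include tRNA:Phe-GAA-1-6, whose peak of 32.8 overlaps a stronger one with its summit outside the window. In replicate 1 phenylalanine had 1 gene and proline 2, and in replicate 2 phenylalanine had 3 and proline 2. The cysteine genes had none in either replicate or in the conservative list.

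No gene had a pooled summit in 6 groups, beside 12.1% of all tRNA genes and 15.8% of all genes. They were serine (0 of 20), glutamate (0 of 19), threonine (0 of 17), asparagine (0 of 10), initiator methionine (0 of 6), which starts every protein, and selenocysteine (0 of 1), which reads a stop codon in a few messages. In the pooled ranked list these groups were reached at 8 serine, 11 glutamate, 8 threonine and 9 asparagine genes, at 5 of the 6 initiator genes and at the selenocysteine gene. The summit at tRNA:SeC-TCA-1-1 there had a signal of 41 (rank 21502), with 35.2 in replicate 1 and 13.2 in replicate 2. With 1 to 26 genes a group, an order of amino acids was not tested.

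The strongest gene of the remaining groups had pooled signals of 51.2 to 217. Tryptophan and glycine shared 217 at tRNA:Trp-CCA-2-2 and tRNA:Gly-GCC-1-9, alanine had 174 at tRNA:Ala-AGC-2-2, arginine and elongator methionine shared 91.4 at tRNA:Arg-TCT-1-1 and tRNA:Met-CAT-1-1, and cysteine had 51.2 at tRNA:Cys-GCA-1-2.

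**Figure D5:**
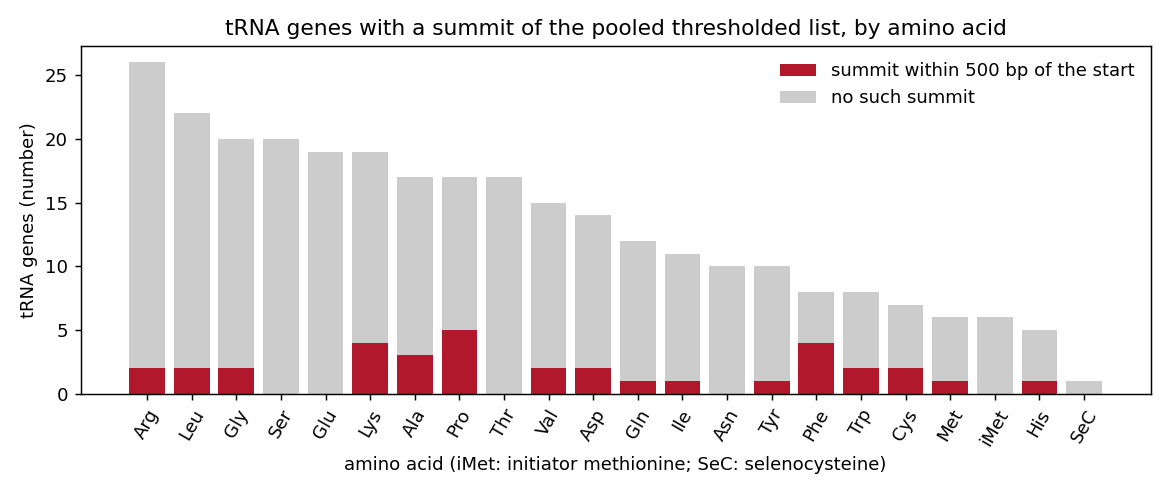
Number of tRNA genes (vertical axis) for each amino acid (horizontal axis), with the genes that have a summit of the pooled thresholded list within 500 bp in red and the rest in grey. Phenylalanine has 4 of 8 in red, and serine, glutamate, threonine, asparagine, initiator methionine and selenocysteine have 0.

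Copies of the same gene sequence did not all have a summit. A pooled summit lay at 12.1% of all tRNA genes and 15.8% of all genes, and at such shares a summit at every copy would be rare in any case. Of the 43 sequences with at least 2 copies, 16 had a copy with a pooled summit, and in 0 of these did all copies have one. The glycine sequence Gly-GCC-1 had a summit at 2 of 13 copies, the lysine sequence Lys-CTT-1 at 3 of 13, Asp-GTC-1 at 2 of 12 and Ala-AGC-2 at 2 of 11. Phe-GAA-1, with 4 of 8, had the most copies with a summit. tRNA:Asp-GTC-1-5, shown above, and tRNA:Asp-GTC-1-4, the other copy with a summit, lie side by side next to the start of Sema1a and share a peak. tRNA:Asp-GTC-1-6 lies in an intron of the same gene and had its nearest summit 34803 bp away. By copy number the share was 7 of 52 (13.5%) for single-copy genes, 8 of 103 (7.77%) at 2 to 5 copies and 20 of 135 (14.8%) at 6 or more.

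Clustered and single genes were compared with tRNA genes chained at gaps of up to 2000 bp, which gave 69 clusters with 200 genes and 90 single genes. A pooled summit lay at 28 clustered genes (14%) and at 7 single genes (7.78%), against 15.8% of all genes. In the replicates the shares were 7.5% of clustered and 6.67% of single genes in replicate 1, and 8% and 6.67% in replicate 2, a smaller gap than in the pooled list. A cluster spans more sequence and its genes share peaks, and 16 of the 69 clusters had a summit. Clusters of 2 genes had a pooled summit at 17.6% of their genes, those of 3 or 4 at 7.23% and those of 5 or more at 20.9%. The same shares were 14.9%, 7.23% and 9.3% in the conservative list, against 15.2% of all genes. They were 12.2%, 2.41% and 9.3% in replicate 1, against 12.3%, and 12.2%, 3.61% and 9.3% in replicate 2, against 10.9%. The high share of the largest clusters was thus seen in the pooled list alone of these 4.

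Among the 7 clusters of at least 5 tRNA genes, 3 had a pooled summit. The cluster at chr3R:17617761-17620216 holds tRNA:Val-CAC-1-1, tRNA:Pro-TGG-1-1, tRNA:Ala-AGC-2-2, tRNA:Pro-TGG-1-2 and tRNA:Ala-AGC-2-3, and all 5 were within 500 bp of 1 of 2 summits. The stronger of them, at tRNA:Pro-TGG-1-2, was thresholded in both replicates, and the other, 67.5 inside tRNA:Pro-TGG-1-1, in neither. The cluster at chr3L:3095737-3097590, in an intron of the chitinase gene Cht7, had 1 summit at 3 of its 6 genes, with a pooled signal of 51.2. The strongest overlapping ranked peaks had 39.7 in replicate 1 and 29.5 in replicate 2, but their summits lay elsewhere. They were 429 bp and 281 bp after the start of tRNA:Cys-GCA-1-3, and the pooled summit was 77 bp after it. Weaker ranked summits of 21 in replicate 1 and 22.7 in replicate 2 lay within 500 bp of tRNA:Cys-GCA-1-2. The cluster of tRNA:Ile-AAT-1-3 had 1 of 7 genes with a summit. The 4 others, led by tRNA:Arg-TCG-2-1 on X, tRNA:Arg-ACG-1-2 and tRNA:iMet-CAT-1-1 on 2R and tRNA:Asn-GTT-1-10 on 3R, had 0. In the pooled ranked list all genes of the 2 on 2R had a summit, and the 6 genes led by tRNA:Asn-GTT-1-10 (chr3R:8139533-8141042) still had 0.

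By chromosome, the share with a pooled summit was 3 of 24 on X, 5 of 41 on 2L, 15 of 98 on 2R, 3 of 48 on 3L and 9 of 79 on 3R. Over all chromosomes it was 12.1% of tRNA genes and 15.8% of all genes. The 3 genes on 3L were those in Cht7 with a shared peak, and in the conservative and replicate lists 3L had 0.

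Some genes lay close to the 500 bp limit. Just inside it were tRNA:Arg-ACG-1-1 at 434 bp, tRNA:Cys-GCA-1-2 at 455 bp and tRNA:Val-CAC-2-5 at 475 bp from their nearest pooled summit. Just outside were tRNA:Ile-AAT-1-1 at 503 bp, tRNA:Lys-CTT-1-13 at 517 bp and tRNA:Leu-TAA-1-1 at 545 bp.

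The genes that encode the Pol III machinery were looked at beside the tRNA genes, as coding genes with summits within 500 bp of any of their start sites. Of 24 listed genes 9 (37.5%) had a pooled summit, against 2911 of 13945 protein-coding genes (20.9%) counted the same way. They were 6 of 17 Pol III subunits, 2 of 4 genes of TFIIIB and TBP-like factors, and RNaseZ, which trims the 3′ end of tRNA precursors. Bdp1, a TFIIIB subunit, had the strongest, at 401, with 279 in replicate 1 and 121 in replicate 2. Polr3E had 271, with 195 in replicate 1 and 74 in replicate 2, and Brf, also of TFIIIB, had 256, with 143 in replicate 1 and 98.2 in replicate 2. Polr2H, a subunit shared with the other RNA polymerases, had 212 with 109 in replicate 1 and 99.3 in replicate 2. Polr2F, Polr1D, RNaseZ and Polr3F had 75 to 152. Polr1D lay at the limit of the window, with its summit 500 bp from the start site.

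Of 8 other genes that Pol III transcribes, 5S rRNA genes apart, 1 (12.5%) had a pooled summit, near the 12.1% of tRNA genes and the 15.8% of all genes. It was RNaseMRP:RNA, whose pooled signal was 110, beside 53.4 in replicate 1 and 51 in replicate 2. The 96 annotated 5S rRNA genes, the 4 U6 and U6atac genes and the 2 7SL genes had 0. The median share of unique 36-base words at the 5S rRNA genes was 0%, and its part in this count was not tested.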

How the data were processed

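Drgx-eGFP chromatin immunoprecipitation was measured in 2 biological replicates of whole embryos. The authors deposited 8 peak lists on dm6, per the labels. The sources used here do not give the aligner, peak caller, versions or read length, and the lists hold no read counts, so depth is unknown and no counting interval is given. The deposited lists give peak and summit positions, a score of 0 to 1000 by the authors, and a signal of unstated scale. The 2 ranked lists from both replicates share a name. The one that holds 100% of the conservative peaks (the other holds 99.8%) was taken as the conservative one.

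Genes came from Ensembl release 115 and sequence from the NCBI Release 6 assembly, whose coordinates are those of dm6. Summits were assigned within 500 bp of gene starts with Python 3.11.15, NumPy 2.4.6 and SciPy 1.17.1, plots drawn with matplotlib 3.10.9, and the assignment was tested on simulated summits. All genes of the annotation served as background. No hypothesis test was possible with 1 group. Peaks were matched between lists by an overlap of at least 1 bp. tRNA genes were named if they were nearest to 1 of the 12 strongest summits, strongest of an amino acid, beside the 500 bp limit, in 1 of the 4 largest identical families with mixed outcome, in a cluster of at least 5 genes, or selenocysteine or initiator genes. Pol III genes with a summit were also named, except 1 that is not reported here, and other names were chosen after their values were seen. The set and the lists were chosen with earlier results of these data known. Alternatives were other lists, windows, anchors, thresholds and cluster gaps, and the relaxed B box was added after seeing the data.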

Additional observations from a re-analysis of the deposited data

How the results depend on the processing

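The count of 35 tRNA genes with a summit was 16 within 250 bp, 55 within 1000 bp, 16 with the strongest 50% of the peaks and 21 to 22 with 1 replicate left out. With the conservative list it was 29, from any base of the gene 37, at the top score 26, and without genes near a coding start 26. The share of tRNA genes over that of all genes, 0.763, was 0.659 with the conservative list, 0.473 within 250 bp, 0.892 within 1000 bp, 0.501 from any base of the gene, 0.669 at the top score, 0.633 with the strongest 50% and 0.587 to 0.699 with 1 replicate left out. It passed 1 only without genes near a coding start, at 1.32, where both sides are non-coding genes. Clustered genes with a summit, 28, were 13 within 250 bp, 42 within 1000 bp, 10 with the strongest 50% and 15 to 16 with 1 replicate left out. Single genes, 7, were 3 within 250 bp and 13 within 1000 bp. The 24 distinct summits were 15 to 16 with 1 replicate left out. The median distance of 205 bp was 233 bp from the middle of the gene and 205 to 224 bp with 1 replicate left out. The B box word, at 3 summits, was at 8 in its relaxed form. The other alternatives changed these counts by less than 1.5 times. The cause of these shifts was not tested, but a narrower window or a subset of the same peaks can only lower a count. No tRNA gene carries the pseudogene biotype, so that alternative was not run. No paired analysis was possible because there is only 1 group. Depth is unknown.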
